A study of Homo sapiens with 21 samples.

Results

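The transcriptional kinases CDK8, CDK9, CDK12, CDK13 and CDK19 and the transcriptional cyclins CCNT1, CCNT2, CCNK, CCNL1 and CCNC were followed across 4 human breast cancer cell lines treated with THZ1, a covalent inhibitor of the transcriptional kinase CDK7. The 10 genes were taken by symbol from the platform annotation, which pairs 18132 genes with 44994 probe sets of exactly 1 symbol. They have 32 probe sets, and 27 of these were tested among 29084 probe sets whose highest group mean reached an intensity of 57.4, the median of all values. The other 5 (probe sets 3, 4 and 5 of CDK19, 6 of CDK12 and 3 of CDK13) stayed below it in every group, with intensities between 12.8 and 55.5. Probe sets are numbered within a gene by their mean over the 21 arrays, and probe set 1, the brightest, represents the gene unless another is named.

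Messenger RNA synthesis by RNA polymerase II is paced by cyclin-dependent kinases that phosphorylate the polymerase's carboxy-terminal domain and its accessory factors. CDK7 acts at initiation within TFIIH and also activates other kinases. CDK9 pairs with cyclin T1 or T2 (CCNT1, CCNT2) as P-TEFb, which releases paused polymerase into elongation, and CDK12 and CDK13 pair with cyclin K (CCNK) and support elongation, CDK12 above all at long genes and DNA repair genes. CDK8 and its paralog CDK19 pair with cyclin C (CCNC) in the kinase module of Mediator, the complex that links enhancer-bound factors to the polymerase. Cyclin L1 (CCNL1) is a partner of the CDK11 kinases and is linked to splicing.

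MDA-MB-468 and BT-549 are triple-negative lines, ZR-75-1 expresses the estrogen receptor (ER), and T47D expresses ER and the progesterone receptor. Each line received DMSO, 50 nM THZ1 or 250 nM THZ1 for 6 h in RPMI-1640 with fetal bovine serum, and the DMSO cells of the same line are the control in every comparison. Each BT-549 group is a single array and is described without a test, and the other 3 lines, called the replicated lines, have 2 arrays in each group. The labels do not say that replicate arrays came from separate cultures, so p-values cover only how far these arrays differ, which can be technical. The source name of the ZR-75-1 and T47D samples reads MDA-MB-468, against their titles and cell line field, which set the groups here. On the DMSO arrays ESR1, the ER gene, had mean intensities of 31, 18, 442 and 906 in MDA-MB-468, BT-549, ZR-75-1 and T47D. PGR, the progesterone receptor gene, read 11.3, 15.9, 429 and 5081 in the same order, so its signal was not limited to T47D. Summed intensity of 3 basal genes was 8771 in MDA-MB-468 and 130 to 312 in the other lines, that of 2 epithelial genes was 46 in BT-549 with VIM at 14442, and 7 immune and stromal genes summed to 204 to 503 in the 4 lines. Replicate arrays correlated at r = 0.9929 to 0.9957 over the tested probe sets, and 25 to 73 of these differed 2-fold between replicates. Array means lay between 326.4 and 342.8, while the 75th percentile ran from 140.3 on a 250 nM ZR-75-1 array to 231.2 on a DMSO MDA-MB-468 array. A fixed mass of total RNA was labelled, so fewer cells and less RNA per cell cannot be told apart, and a lower value is a lower share of the labelled RNA.

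The stretches from 120 bases before to 30 bases from the RefSeq start site (build GRCh38.p14, 5′ to 3′ on the gene's strand) are shown for CDK9, CDK12 and CCNL1, whose representative probe sets fell at 250 nM in each replicated line, and for CCNK and CCNC, which fell in 1 of these lines each. CDK9 lies on the plus strand at chr9:127785914-127786063, CDK12 on the plus strand at chr17:39461366-39461515, CCNL1 on the minus strand at chr3:157160118-157160267, CCNK on the plus strand at chr14:99481289-99481438 and CCNC on the minus strand at chr6:99568785-99568934. CDK8 and CDK13, which also fell in each replicated line, are not shown. Capitals mark matches, on either strand, to any of the 9 motifs searched.
CDK9: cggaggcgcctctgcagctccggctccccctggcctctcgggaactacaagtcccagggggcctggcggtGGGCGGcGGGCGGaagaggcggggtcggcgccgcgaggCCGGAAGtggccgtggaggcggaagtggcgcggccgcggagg
CDK12: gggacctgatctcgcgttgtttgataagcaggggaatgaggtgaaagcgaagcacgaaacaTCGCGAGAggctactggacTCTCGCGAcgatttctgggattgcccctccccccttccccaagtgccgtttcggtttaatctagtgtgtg
CCNL1: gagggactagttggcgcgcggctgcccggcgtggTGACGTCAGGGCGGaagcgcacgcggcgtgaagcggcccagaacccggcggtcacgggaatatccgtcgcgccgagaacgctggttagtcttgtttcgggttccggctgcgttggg
CCNK: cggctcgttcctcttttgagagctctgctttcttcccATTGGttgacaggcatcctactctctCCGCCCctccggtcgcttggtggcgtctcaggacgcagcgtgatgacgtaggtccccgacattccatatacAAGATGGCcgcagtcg
CCNC: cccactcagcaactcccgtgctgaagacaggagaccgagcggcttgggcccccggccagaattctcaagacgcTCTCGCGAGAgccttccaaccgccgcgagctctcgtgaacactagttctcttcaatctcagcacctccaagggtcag

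The motifs were searched on both strands in 300-base windows, 250 bases before to 50 after the start, of all 10 members and of 34943 RefSeq promoters. The TATA box TATAAA was in 0 of 10 member windows and in 11.6% of all, the GC box GGGCGG in 8 of 10 and 44.9%, and the CCAAT box CCAAT in 5 of 10 and 34.6%. CDK9 and CCNT1 hold CCGGAAG, the core of an ETS factor motif, which 10.2% of all windows hold. The cyclic AMP response element TGACGTCA was found in CCNL1 alone among members (1.84% of all), where it adjoins a GC box, and TCTCGCGA in CCNC and CDK12 (1.14% of all). CCNK holds the YY1 motif AAGATGGC just after its start (2.89% of all), CCNT2 the palindromic NRF1 motif (1.23%), and CDK8 and CCNT1 the E-box CACGTG (7.23%). A match describes the letters in a window and is not a measured binding site.

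At 250 nM THZ1, CDK8, CDK9, CDK12, CDK13 and CCNL1 fell in all 3 replicated lines, with CDK13 2.46-fold to 2.98-fold lower. CCNT1 fell in MDA-MB-468 and ZR-75-1, CCNK in ZR-75-1 and CCNC in T47D, while CDK19 rose in MDA-MB-468 and fell in ZR-75-1, where quantile normalization turned its sign. In each replicated line the most negative values were those of CDK13 and CCNL1 probe sets. A probe set is called here where limma's adjusted p for the contrast, corrected over all 29084 probe sets, was under 0.05. In MDA-MB-468, 16 of 27 member probe sets were lower and 1 was higher (CDK19), against 26.7% lower and 8.17% higher of all tested. ZR-75-1 had 20 lower and 0 higher, against 38.7% and 9.41% of all, and no member probe set was higher there at an unadjusted p under 0.05 either (0 of 27). T47D had 12 lower and 1 higher (CCNL1 probe set 4), against 29.7% and 8.49%. Across the 4 lines, in a limma fit on the 12 line-by-dose means, 16 were lower and 0 higher (1 higher at an unadjusted p under 0.05), against 28% and 8.58%. The median log2 change of the 27 was -0.37 in MDA-MB-468, -0.49 in ZR-75-1 and -0.22 in T47D, beside -0.06, -0.16 and -0.08 for all tested probe sets. By representative probe set, 4 of 5 kinases were lower in MDA-MB-468, 5 in ZR-75-1 and 4 in T47D, and of 5 cyclins 2, 3 and 2 were lower, where 30%, 42.6% and 33.2% of all genes were. The 250 nM arrays lay wholly below the DMSO arrays for 18, 21 and 16 of 27 probe sets (40.7%, 49.8% and 45% of all tested), with the lines in the same order, and wholly above them for 5, 1 and 2 (23.5%, 19.6% and 25.1%). The splits changed with the scaling. With arrays centred on their median the lower and higher counts became 8 and 6 in MDA-MB-468 (18.3% and 25.5% of all tested) and 13 and 3 in ZR-75-1 (27.1% and 27.5%). They became 11 and 1 in T47D (22.4% and 17%) and 12 and 3 across 4 lines (21.3% and 27.9%). With quantile normalization they were 9 and 5 in MDA-MB-468 (18.8% and 24.9%) and 13 and 4 in ZR-75-1 (26.2% and 33.8%). The counts were then 8 and 4 in T47D (20.7% and 25.5%) and 11 and 5 across 4 lines (19.8% and 32.1%). Median-centring moved the median change of all tested probe sets from -0.06 to 0.14 in MDA-MB-468 and from -0.16 to 0.09 in ZR-75-1. Without 250 nM replicate 1 of MDA-MB-468 its lower count was 9, and across lines the called count was 9 without MDA-MB-468 and 10 without ZR-75-1.

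**Figure D1:**
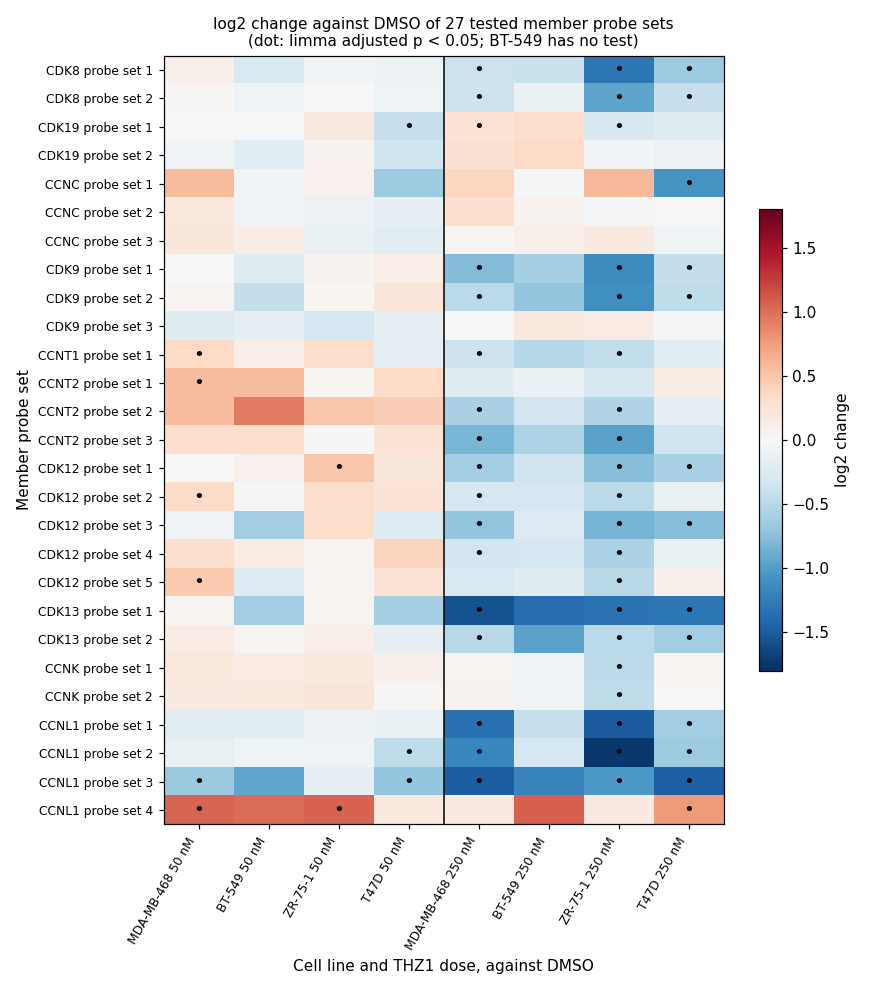
Log2 change of intensity against DMSO for the 27 tested probe sets (vertical axis) in each line at 50 nM (left block) and 250 nM (right block) THZ1; colour gives the change and a dot marks limma adjusted p under 0.05, with no test for BT-549. Blue fills most of the 250 nM block, with CDK13 probe set 1 at -1.57, -1.33 and -1.30 in the replicated lines. CCNL1 probe set 4 has positive values at both doses, with a dot only at 50 nM in MDA-MB-468 and ZR-75-1 and at 250 nM in T47D.

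The 50 nM dose moved few member probe sets. In MDA-MB-468, 5 of 27 were higher (CCNL1 probe set 4, CCNT1, CCNT2, and probe sets 2 and 5 of CDK12) and 1 was lower (CCNL1 probe set 3), against 4% higher and 11.9% lower of all tested. ZR-75-1 had 2 higher (CCNL1 probe set 4 and CDK12) and 0 lower, against 2.64% and 4.55%, with 0 lower also at an unadjusted p under 0.05. T47D had 3 lower (CDK19, and probe sets 2 and 3 of CCNL1) and 0 higher, against 6.44% and 1.89%, and 3 were higher at an unadjusted p under 0.05. Across 4 lines limma called 0 in either direction, against 0.65% lower and 0.337% higher of all tested, and at an unadjusted p under 0.05 there were 2 lower and 5 higher. CCNL1 probe set 4, in the higher counts of MDA-MB-468 and ZR-75-1, passed the filter through treated groups alone. These small counts rest on single arrays. The higher count in MDA-MB-468 was 1 without 50 nM replicate 1 and 2 without any other of its 50 nM and DMSO arrays, and the lower count was 0 without DMSO replicate 2 or 50 nM replicate 1. In T47D the lower count was 0 without DMSO replicate 1 or 50 nM replicate 1 and 1 without DMSO replicate 2, and the higher count was 1 without DMSO replicate 1. In ZR-75-1 the higher count was 1 without DMSO replicate 2. Scaling changed the MDA-MB-468 split to 1 lower and 10 higher (median-centred, 6.64% and 11.5% of all tested) or 1 and 6 (quantile, 8.27% and 6.18%). It changed ZR-75-1 to 0 and 4 (quantile, 4.5% and 3.06%). T47D changed to 2 and 0 (median-centred, 4.34% and 1.82%) or 1 and 2 (quantile, 4.7% and 3.59%).

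Between the doses, 250 nM against 50 nM, 19 of 27 member probe sets were lower in MDA-MB-468 and 0 higher (2 at an unadjusted p under 0.05), against 19.8% and 4.27% of all tested. The same contrast gave 21 lower and 1 higher in ZR-75-1, against 37.9% and 5.8%, and 14 and 1 in T47D, against 22.3% and 4.03%. The called count in T47D was smaller without 250 nM replicate 2. Its split was 11 lower and 2 higher with median-centring (17.2% and 6.88% of all tested) and 9 and 4 with quantile normalization (16.8% and 15.8%). The 250 nM arrays enter this contrast and that of 250 nM against DMSO, and the 50 nM arrays also enter that of 50 nM against DMSO. These sets of counts are therefore not separate evidence. CCNT2 probe set 3 was tested only because its 50 nM MDA-MB-468 mean reached the filter, in 1 of 12 groups. Its lower value at 250 nM than in that group is therefore no support. CCNT2 probe set 2 and CDK9 probe set 3 reached the filter in 3 of 12 groups each. For CCNT2 probe set 2 these were DMSO and 50 nM in MDA-MB-468 and 50 nM in ZR-75-1. Its lower values at 250 nM than in those groups are no support either. For CDK9 probe set 3 they were the T47D groups.

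**Figure D2:**
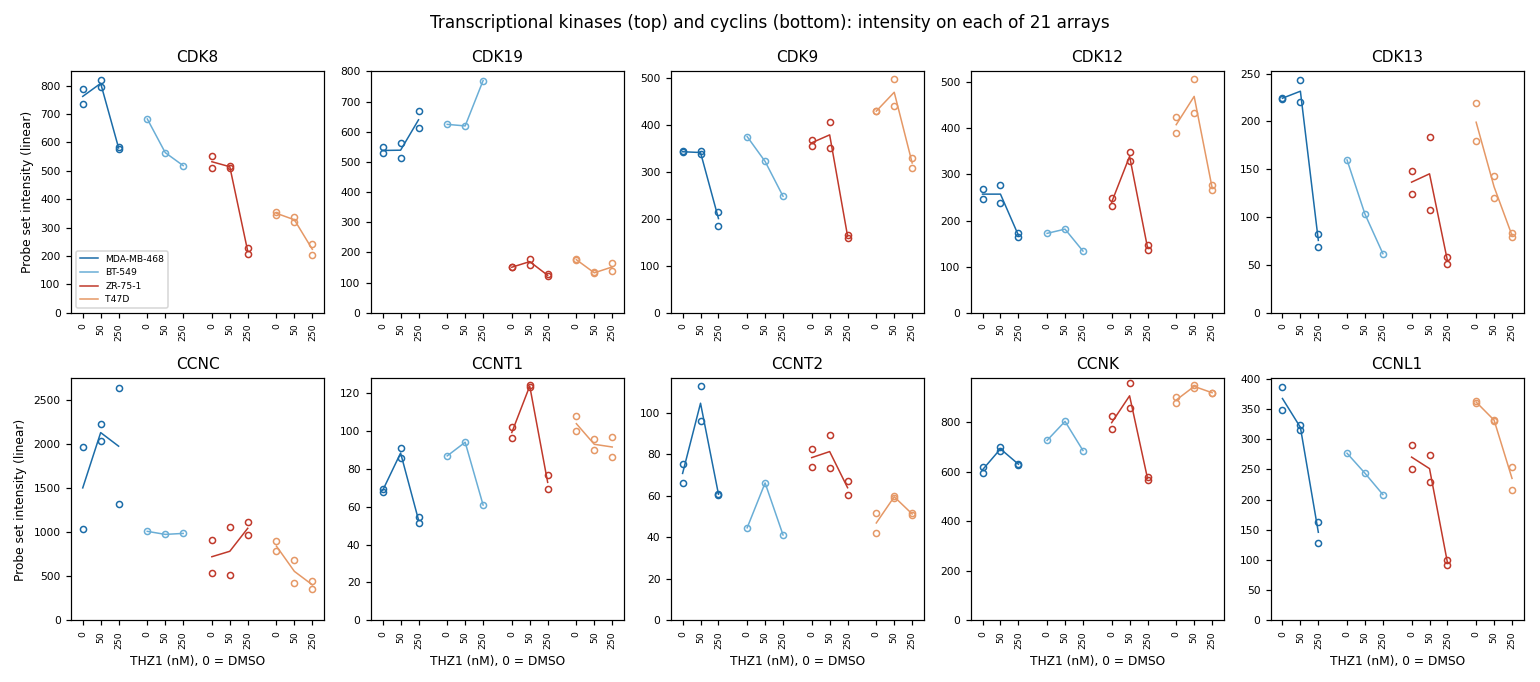
Linear intensity of each gene's representative probe set on each of the 21 arrays (circles) by THZ1 dose, 0 being DMSO, with a line through the dose means of each cell line; kinases are in the upper panels and cyclins in the lower, and each panel starts at 0. CDK8 at 250 nM in ZR-75-1 (226 and 207) sits far under its DMSO arrays, while the CCNC circles of one group lie far apart, 1324 and 2636 in MDA-MB-468 at 250 nM.

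CDK8, the main catalytic subunit of the Mediator kinase module, fell at 250 nM in all 3 replicated lines and most in ZR-75-1. In MDA-MB-468, CDK8 intensity (probe set 11763387_s_at) was 789.9 and 734 with DMSO, 822 and 794 at 50 nM, and 577 and 584 at 250 nM. In ZR-75-1, CDK8 was 511 and 553 with DMSO, 510.3 and 519 at 50 nM, and 226 and 207 at 250 nM. In T47D, CDK8 was 356 and 344 with DMSO, 318 and 337 at 50 nM, and 203 and 244 at 250 nM. The 250 nM arrays lay below both DMSO arrays in each of these lines, and in ZR-75-1 by more than a factor of 2. The log2 changes were -0.39 (adjusted p = 0.0016), -1.30 (adjusted p = 2.23e-09) and -0.65 (adjusted p = 1.27e-05), each with a standard error of 0.08, which is 2.46-fold lower in ZR-75-1 and 1.31-fold in MDA-MB-468. BT-549 read 683 with DMSO, 564 at 50 nM and 518 at 250 nM. No change at 50 nM passed the test, with log2 values from -0.10 to 0.09 in the replicated lines. CDK8 probe set 2 changed by -0.37, -0.94 and -0.42 at 250 nM, all called lower. In MDA-MB-468 the call ended under median-centring for both CDK8 probe sets (-0.19 for probe set 1), and for probe set 2 also under quantile normalization and without DMSO replicate 1 (-0.28, adjusted p = 0.0809) or 250 nM replicate 1 (-0.28, adjusted p = 0.0822). Quantile normalization also ended the T47D call of probe set 2.

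CDK19, the paralog of CDK8 that can replace it in the module, moved in opposite directions in different lines. In MDA-MB-468, CDK19 intensity (11719253_at) was 548 and 528 with DMSO, 564 and 513 at 50 nM, and 668 and 611 at 250 nM. In ZR-75-1, CDK19 was 151 and 150.3 with DMSO, 159.5 and 179 at 50 nM, and 127 and 121 at 250 nM. In T47D, CDK19 was 175 and 177 with DMSO, 131 and 133 at 50 nM, and 139 and 164 at 250 nM. Both 250 nM arrays lay above the DMSO arrays in MDA-MB-468 and below them in ZR-75-1 and T47D. The log2 change at 250 nM was 0.25 (adjusted p = 0.0442) in MDA-MB-468 and -0.28 (adjusted p = 0.0166) in ZR-75-1, with a standard error of 0.09 each, and -0.22 (adjusted p = 0.0713) in T47D, where only the 50 nM change of -0.41 (adjusted p = 0.00955) passed. BT-549 read 624 with DMSO, 619 at 50 nM and 769.5 at 250 nM, a log2 change of 0.30 at 250 nM. CDK19 probe set 2 gave 0.28, -0.04 and -0.11 at 250 nM, none called. The MDA-MB-468 call ended without the intensity filter and on leaving out either MDA-MB-468 DMSO array, 250 nM replicate 1 (0.18, adjusted p = 0.254), or either DMSO array of ZR-75-1 or T47D or 50 nM array of T47D, which left the value at 0.25 and changed the spread (adjusted p up to 0.0556). The ZR-75-1 call ended without DMSO replicate 1, DMSO replicate 2 or 250 nM replicate 2 (adjusted p up to 0.0961), was -0.03 with median-centring, and turned to 0.22 with quantile normalization. The T47D call at 50 nM ended without DMSO replicate 1, DMSO replicate 2 or 50 nM replicate 1 (adjusted p up to 0.0753), and at 250 nM a call of -0.34 appeared without 250 nM replicate 2.

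CCNC, the cyclin of the module, had the widest spread between replicates among the representative probe sets and 1 called change. In MDA-MB-468, CCNC intensity (11726983_s_at) was 1038 and 1973 with DMSO, 2229.9 and 2038 at 50 nM, and 1324 and 2636 at 250 nM. In ZR-75-1, CCNC was 914 and 533 with DMSO, 513 and 1058 at 50 nM, and 1123 and 970.2 at 250 nM. In T47D, CCNC was 788 and 899 with DMSO, 691 and 423 at 50 nM, and 448 and 361 at 250 nM. In MDA-MB-468 and ZR-75-1 the 2 arrays of a group could differ by more than the dose means did, and in T47D all treated arrays lay below the DMSO arrays. Only the T47D change at 250 nM was called, -1.07 (adjusted p = 0.035) with a standard error of 0.38, and the changes in MDA-MB-468 (0.38) and ZR-75-1 (0.58) were not. The T47D call ended on leaving out any of its 4 DMSO and 250 nM arrays (-0.91 to -1.22, adjusted p 0.0673 to 0.173) and under quantile normalization. Probe sets 2 and 3 of CCNC, which spread less, were at -0.0005 and -0.07 in T47D, -0.03 and 0.16 in ZR-75-1 and 0.31 and 0.06 in MDA-MB-468, none called as deposited. Under quantile normalization both were called higher in T47D and ZR-75-1. BT-549 read 1012 with DMSO, 977 at 50 nM and 988 at 250 nM on probe set 1.

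CDK9, the kinase of P-TEFb, fell at 250 nM in all 3 replicated lines, with no called change at 50 nM. In MDA-MB-468, CDK9 intensity (11720660_s_at) was 341 and 344 with DMSO, 337 and 345 at 50 nM, and 186 and 215 at 250 nM. In ZR-75-1, CDK9 was 355 and 369 with DMSO, 407 and 351 at 50 nM, and 159.9 and 166 at 250 nM. In T47D, CDK9 was 429 and 429 with DMSO, 498 and 441 at 50 nM, and 309 and 329 at 250 nM. Every 250 nM array of the 3 lines lay below every DMSO and 50 nM array of its line. The log2 changes at 250 nM were -0.78 (adjusted p = 3.41e-06), -1.15 (adjusted p = 1.9e-08) and -0.43 (adjusted p = 0.00118), with a standard error of 0.09, or 1.71-fold, 2.22-fold and 1.35-fold lower. At 50 nM they were -0.01, 0.06 and 0.13, none called. BT-549 read 375 with DMSO, 322 at 50 nM and 248 at 250 nM. Probe set 2 gave -0.49, -1.10 and -0.45, all called lower, and the dim probe set 3 gave -0.01, 0.15 and -0.04, none called. Under quantile normalization the T47D call of probe set 1 ended (-0.17). Probe set 2 lost its MDA-MB-468 and T47D calls under both scalings, and without MDA-MB-468 DMSO replicate 2 (-0.28, adjusted p = 0.165) or 250 nM replicate 1 (-0.39, adjusted p = 0.0951), and without T47D DMSO replicate 1 (-0.32, adjusted p = 0.167) or 250 nM replicate 1 (-0.36, adjusted p = 0.115).

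CCNT1, the main cyclin partner of CDK9, was higher at 50 nM than with DMSO in MDA-MB-468 and lower at 250 nM in MDA-MB-468 and ZR-75-1. In MDA-MB-468, CCNT1 intensity (11740231_a_at) was 69.1 and 68.0 with DMSO, 91.0 and 85.7 at 50 nM, and 51.5 and 54.4 at 250 nM. In ZR-75-1, CCNT1 was 102 and 96.3 with DMSO, 123 and 124 at 50 nM, and 69.1 and 76.6 at 250 nM. In T47D, CCNT1 was 99.7 and 108 with DMSO, 90.1 and 95.8 at 50 nM, and 86.2 and 96.9 at 250 nM. In MDA-MB-468 and ZR-75-1 both 50 nM arrays lay above, and both 250 nM arrays below, the DMSO arrays, and in T47D all treated arrays lay just below them. The log2 changes were 0.36 (adjusted p = 0.0212) at 50 nM and -0.37 (adjusted p = 0.00823) at 250 nM in MDA-MB-468, 0.32 (adjusted p = 0.0705) and -0.45 (adjusted p = 0.00146) in ZR-75-1, and -0.16 (adjusted p = 0.403) and -0.18 (adjusted p = 0.17) in T47D, with a standard error of 0.10. BT-549 read 86.8 with DMSO, 94.1 at 50 nM and 60.9 at 250 nM. The 250 nM calls in MDA-MB-468 and ZR-75-1 ended under both scalings (-0.17 and -0.20 with median-centring), that in MDA-MB-468 also without 250 nM replicate 1 (-0.33, adjusted p = 0.0616), and the 50 nM call on leaving out any of the 4 MDA-MB-468 arrays behind it (adjusted p up to 0.14). Across 4 lines the change at 250 nM was -0.38 (adjusted p = 0.0335), and it ended without MDA-MB-468, BT-549 or ZR-75-1 (adjusted p 0.103, 0.125 and 0.108) and under both scalings.

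CCNT2, the alternative cyclin partner of CDK9, rose at 50 nM in MDA-MB-468 on its brightest probe set, and its dimmer probe sets fell at 250 nM in MDA-MB-468 and ZR-75-1. In MDA-MB-468, CCNT2 intensity (11726082_a_at) was 75.3 and 66.4 with DMSO, 113 and 96.3 at 50 nM, and 61.0 and 60.6 at 250 nM. In ZR-75-1, CCNT2 was 82.8 and 74.2 with DMSO, 89.3 and 73.5 at 50 nM, and 67.4 and 60.5 at 250 nM. In T47D, CCNT2 was 51.9 and 42.1 with DMSO, 59.0 and 60.1 at 50 nM, and 51.8 and 50.8 at 250 nM. The 50 nM arrays lay above the DMSO arrays in MDA-MB-468 and T47D, and the 250 nM arrays below them in MDA-MB-468 and ZR-75-1. The called change at 50 nM in MDA-MB-468 was 0.56 (adjusted p = 0.00999) with a standard error of 0.14, and at 250 nM probe set 1 gave -0.22, -0.30 and 0.14, none called. The 50 nM call ended without DMSO replicate 2 (0.47, adjusted p = 0.0834) or 50 nM replicate 1 (0.45, adjusted p = 0.118). BT-549 read 44.6 with DMSO, 66.3 at 50 nM and 41.2 at 250 nM. Probe set 2 was called lower at 250 nM in MDA-MB-468 (-0.59, adjusted p = 0.0415) and ZR-75-1 (-0.54, adjusted p = 0.0461), calls that ended under both scalings, without the filter, and on leaving out any of 10 and of 13 arrays (in MDA-MB-468 its own 6 arrays and the 4 treated T47D arrays, and in ZR-75-1 also its DMSO arrays and 250 nM replicate 2, with an adjusted p up to 0.181 and 0.382, the latter at -0.29 without ZR-75-1 250 nM replicate 2). Probe set 3 was not above the array background, the mean of 23 background probe sets, on the 250 nM arrays of any line, so its called falls in MDA-MB-468 and ZR-75-1 are bounds of at least 1.73-fold (adjusted p = 0.000625) and at least 1.71-fold (adjusted p = 8.78e-05).

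CDK12, which with cyclin K sustains elongation at long genes, was lower at 250 nM in all 3 replicated lines and higher at 50 nM in ZR-75-1. In MDA-MB-468, CDK12 intensity (11739639_at) was 247 and 268 with DMSO, 238 and 277 at 50 nM, and 164 and 172 at 250 nM. In ZR-75-1, CDK12 was 248 and 232 with DMSO, 349 and 329 at 50 nM, and 136 and 147 at 250 nM. In T47D, CDK12 was 391 and 425 with DMSO, 506 and 433 at 50 nM, and 277 and 266 at 250 nM. The 250 nM arrays lay below every DMSO array of their line, and the 50 nM arrays of ZR-75-1 and T47D lay above the DMSO arrays. At 250 nM the log2 changes were -0.61 (adjusted p = 8.98e-05), -0.76 (adjusted p = 4.98e-06) and -0.59 (adjusted p = 0.000139), with a standard error of 0.10. At 50 nM the change was 0.50 (adjusted p = 0.00457) in ZR-75-1, 0.20 (adjusted p = 0.251) in T47D and -0.0028 (adjusted p = 0.99) in MDA-MB-468, and the ZR-75-1 call ended without DMSO replicate 2 (0.45, adjusted p = 0.0515). BT-549 read 172 with DMSO, 181 at 50 nM and 134 at 250 nM.

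The 5 tested probe sets of CDK12 all had negative log2 changes at 250 nM in MDA-MB-468 and ZR-75-1, with 4 and 5 of them called, and in T47D probe sets 1 and 3 were called while probe sets 2, 4 and 5 stood at -0.14, -0.13 and 0.09. Probe set 3 read -0.71, -0.84 and -0.76, close to probe set 1. At 50 nM in MDA-MB-468, probe set 2 (0.35, adjusted p = 0.0191) and probe set 5 (0.47, adjusted p = 0.0252) were called higher while probe sets 1 and 3 stood at -0.0028 and -0.07, so not every probe set of this gene was called at the low dose. Both 50 nM calls ended on leaving out single MDA-MB-468 arrays: probe set 2 without DMSO replicate 1 or either 50 nM array (adjusted p up to 0.132) and probe set 5 without any of the 4 (up to 0.154). At 250 nM probe sets 1 and 3 stayed called lower in each of the 3 lines on leaving out any array and under both scalings. Probe sets 2 and 4 in MDA-MB-468, and 2 and 5 in ZR-75-1, lost theirs under both scalings. In MDA-MB-468 probe set 2 ended without DMSO replicate 2 or 250 nM replicate 1 (adjusted p 0.103 and 0.117) and probe set 4 without any of its 4 arrays, and in ZR-75-1 probe set 5 ended without 250 nM replicate 2 (-0.35, adjusted p = 0.0828).

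CDK13, the close relative of CDK12 that shares cyclin K, had the most negative changes among the kinases. In MDA-MB-468, CDK13 intensity (11755318_s_at) was 225 and 224 with DMSO, 243 and 219.9 at 50 nM, and 69.0 and 82.2 at 250 nM. In ZR-75-1, CDK13 was 149 and 125 with DMSO, 184 and 107 at 50 nM, and 58.0 and 50.6 at 250 nM. In T47D, CDK13 was 179 and 219 with DMSO, 120.3 and 143 at 50 nM, and 78.7 and 82.8 at 250 nM. All 6 arrays at 250 nM lay below every DMSO array of their line, and in T47D the 50 nM arrays lay between. The log2 changes at 250 nM were -1.57 (adjusted p = 6.26e-06), -1.33 (adjusted p = 2.24e-05) and -1.30 (adjusted p = 5.22e-05), with a standard error of 0.19, or 2.98-fold, 2.51-fold and 2.46-fold lower. These calls held on leaving out any array and under both scalings. BT-549 read 159.8 with DMSO, 103 at 50 nM and 61.7 at 250 nM, 2.59-fold lower at 250 nM. At 50 nM no change passed, with -0.60 (adjusted p = 0.0696) in T47D, where the same value passed without either ZR-75-1 50 nM array (adjusted p = 0.0122 and 0.012). Probe set 2 gave -0.50, -0.48 and -0.62 at 250 nM, all called lower. Its MDA-MB-468 and ZR-75-1 calls ended under both scalings, and without MDA-MB-468 DMSO replicate 2 (-0.41, adjusted p = 0.113) or 250 nM replicate 1 (-0.32, adjusted p = 0.184), and ZR-75-1 DMSO replicate 2 (-0.31, adjusted p = 0.161) or 250 nM replicate 2 (-0.47, adjusted p = 0.0572).

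CCNK, the cyclin shared by CDK12 and CDK13, fell at 250 nM in ZR-75-1 and in no other replicated line as deposited. In ZR-75-1, CCNK intensity (11738282_a_at) was 771 and 824 with DMSO, 956 and 855 at 50 nM, and 577 and 567 at 250 nM. In MDA-MB-468, CCNK was 620.1 and 594 with DMSO, 699 and 683 at 50 nM, and 632 and 628 at 250 nM. In T47D, CCNK was 877 and 900.1 with DMSO, 948 and 939 at 50 nM, and 918 and 918 at 250 nM. The ZR-75-1 arrays at 250 nM lay below its DMSO arrays, and those of MDA-MB-468 and T47D lay a little above theirs. The log2 change was -0.48 (adjusted p = 7.76e-06) in ZR-75-1, 0.05 (adjusted p = 0.57) in MDA-MB-468 and 0.05 (adjusted p = 0.596) in T47D, with a standard error of 0.06. BT-549 read 726 with DMSO, 802 at 50 nM and 685 at 250 nM. Probe set 2 gave -0.46, 0.06 and 0.0012, of which the ZR-75-1 value was called as deposited and under neither scaling. Scaling turned the MDA-MB-468 change of probe set 1 into a called rise (0.25 with median-centring, 0.19 with quantile normalization), and that in T47D under quantile normalization (0.18). At 50 nM probe set 1 read 0.19, 0.18 and 0.09, none called.

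CCNL1 was the one member whose probe sets were called in opposite directions in one contrast. Probe sets 1 (11752535_a_at), 2 (11718594_a_at) and 3 (11745826_a_at) fell at 250 nM in all 3 replicated lines, while probe set 4 (11759759_s_at) rose at 50 nM in MDA-MB-468 and ZR-75-1 and at 250 nM in T47D. In MDA-MB-468, CCNL1 probe set 1 intensity was 349 and 386 with DMSO, 315 and 324 at 50 nM, and 163 and 128 at 250 nM. In ZR-75-1, CCNL1 probe set 1 was 251 and 289 with DMSO, 274 and 228 at 50 nM, and 91.6 and 99.6 at 250 nM. In T47D, CCNL1 probe set 1 was 359 and 364 with DMSO, 332 and 330.4 at 50 nM, and 216 and 254 at 250 nM. The 250 nM arrays lay below the DMSO arrays in each line. The changes at 250 nM were -1.34 (adjusted p = 1.98e-07), -1.50 (adjusted p = 2.83e-08) and -0.63 (adjusted p = 0.000603) for probe set 1, with a standard error of 0.12. Probe set 2 gave -1.17, -1.74 and -0.64 and probe set 3 -1.49, -1.03 and -1.47. All 9 of these falls held on leaving out any array and under both scalings.

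Probe set 4 of CCNL1 stood apart from the other 3. In MDA-MB-468, CCNL1 probe set 4 was 50.5 and 58.8 with DMSO, 117 and 109 at 50 nM, and 65.4 and 57.1 at 250 nM. In ZR-75-1, CCNL1 probe set 4 was 36.5 and 44.3 with DMSO, 84.4 and 83.5 at 50 nM, and 47.3 and 42.9 at 250 nM. In T47D, CCNL1 probe set 4 was 56.9 and 54.7 with DMSO, 60.7 and 64.9 at 50 nM, and 85.9 and 104 at 250 nM. The 50 nM arrays of MDA-MB-468 and ZR-75-1 lay above all DMSO arrays of their line by a factor near 2, and their 250 nM arrays overlapped the DMSO arrays, whereas in T47D the 250 nM arrays were the high ones. BT-549 read 53.5 with DMSO, 107 at 50 nM and 113 at 250 nM, high at both doses. At 50 nM the changes were 1.05 (adjusted p = 6.22e-05) in MDA-MB-468, 1.06 (adjusted p = 0.000211) in ZR-75-1 and 0.17 (adjusted p = 0.529) in T47D, with a standard error of 0.13, and at 250 nM 0.17 (adjusted p = 0.386), 0.16 (adjusted p = 0.347) and 0.76 (adjusted p = 0.000281). No array or scaling ended the 3 calls of probe set 4, and scaling added a called rise across 4 lines at 250 nM (0.54 as deposited, 0.70 median-centred, 0.72 quantile) and, under median-centring, in MDA-MB-468 and ZR-75-1. Probe set 4 reached the filter in 7 of 12 groups, all of them treated, and no DMSO mean reached it. Its higher values in treated groups, BT-549 included, and its difference to probe set 3 are therefore no support for a rise. At 50 nM probe set 3 fell in MDA-MB-468 and T47D.

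In MDA-MB-468, CCNL1 probe set 3 was 179.7 and 232 with DMSO, 118 and 141 at 50 nM, and 65.0 and 81.4 at 250 nM. In T47D, CCNL1 probe set 3 was 207 and 193 with DMSO, 119 and 128 at 50 nM, and 78.8 and 66.3 at 250 nM. The 50 nM arrays lay between the DMSO and the 250 nM arrays in these lines. Probe set 3 changed at 50 nM by -0.66 (adjusted p = 0.00381) in MDA-MB-468 and -0.70 (adjusted p = 0.00503) in T47D, and stood at -0.15 in ZR-75-1 and -0.93 in BT-549. The MDA-MB-468 call ended without DMSO replicate 2 (-0.48, adjusted p = 0.0588) or 50 nM replicate 1 (-0.53, adjusted p = 0.0611), and the T47D call without DMSO replicate 1 (-0.64, adjusted p = 0.0616) or 50 nM replicate 1 (-0.65, adjusted p = 0.0576). Probe set 2 was also called lower in T47D at 50 nM (-0.45, adjusted p = 0.0257), a call that ended on leaving out any of the 4 arrays behind it (adjusted p up to 0.198) and under both scalings. In array nomenclature the suffix _a marks probes that match several transcripts of one gene and _s probes that can match transcripts of different genes. The suffix _s applies to CCNL1 probe set 4, probe sets 1 and 2 of CDK8, and probe set 1 of CDK9, CDK13 and CCNC. It also applies to probe sets 2 and 3 of CDK12 and probe sets 2 and 5 of CDK19. The sources used here do not say which transcript each CCNL1 probe set reads. Among the 32 member probe sets, 15 have the suffix _a, 10 _s, 2 _x (some probes may match other sequences) and 5 none.

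**Figure D3:**
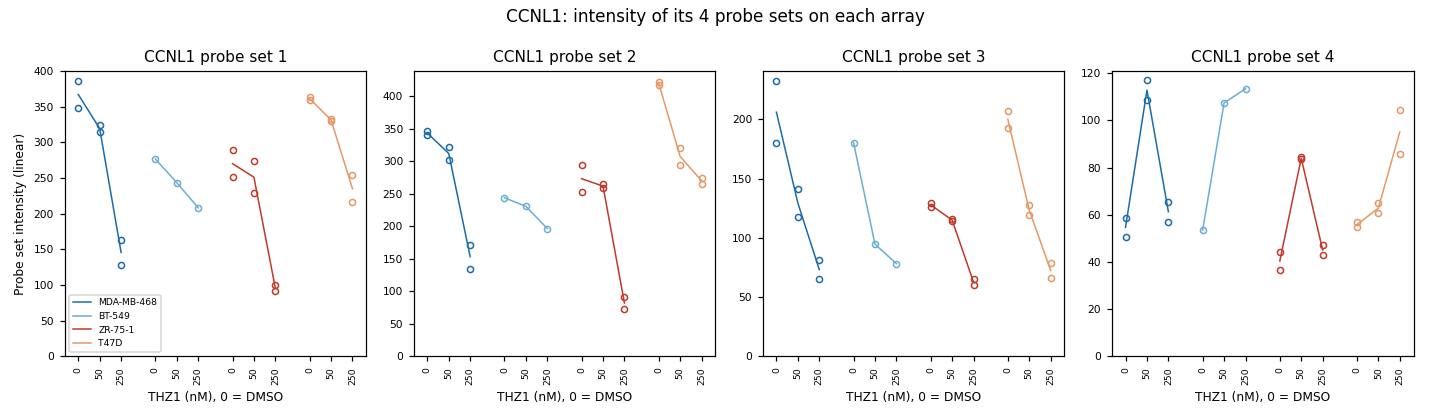
Linear intensity of the 4 CCNL1 probe sets on each array (circles) by THZ1 dose, 0 being DMSO, with lines through the dose means of each cell line and each panel starting at 0. Probe sets 1 to 3 fall toward 250 nM in each line, while probe set 4 is highest at 50 nM in MDA-MB-468 (117 and 109) and ZR-75-1 and at 250 nM in T47D and BT-549.

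On representative probe sets, CDK9, CDK12 and CDK13 fell relative to their cyclin partners on the same arrays. The log2 difference between 2 probe sets of one array is free of any factor that scales the whole array, and its change with dose was averaged over the 3 replicated lines (SD over lines, n = 3). At 250 nM, CDK9 minus CCNT1 changed by -0.45 ± 0.23 and CDK9 minus CCNT2 by -0.66 ± 0.17. CDK12 minus CCNK changed by -0.53 ± 0.21 and CDK13 minus CCNK by -1.27 ± 0.39, and CDK13 minus CDK12 by -0.74 ± 0.20. CDK8 minus CDK19 changed by -0.70 ± 0.29. Each of these 6 changes was negative in all 4 lines, BT-549 included. CDK8 minus CCNC changed by -0.75 ± 1.15, with T47D at 0.41 against -1.88 in ZR-75-1. At 50 nM, CCNL1 probe set 4 minus probe set 3 changed by 1.26 ± 0.43, positive in all 4 lines, with 1.71 in MDA-MB-468, 1.93 in BT-549, 1.21 in ZR-75-1 and 0.87 in T47D.

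In a two-sided exact permutation test that exchanged dose labels within each of the 3 lines (216 arrangements), 7 of the 8 differences had p = 0.00926, the smallest this design allows, and an adjusted p of 0.0106 over the 8, while CDK8 minus CCNC had p = 0.148. These 8 differences were chosen after the values were seen, and the test is no independent support for them. With the mean of each gene's tested probe sets in place of the representative, CDK9 minus CCNT2 changed by -0.05 (adjusted p = 0.676), so that difference rests on the probe set, and CDK8 minus CCNC by -0.72 (adjusted p = 0.0162).

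**Figure D4:**
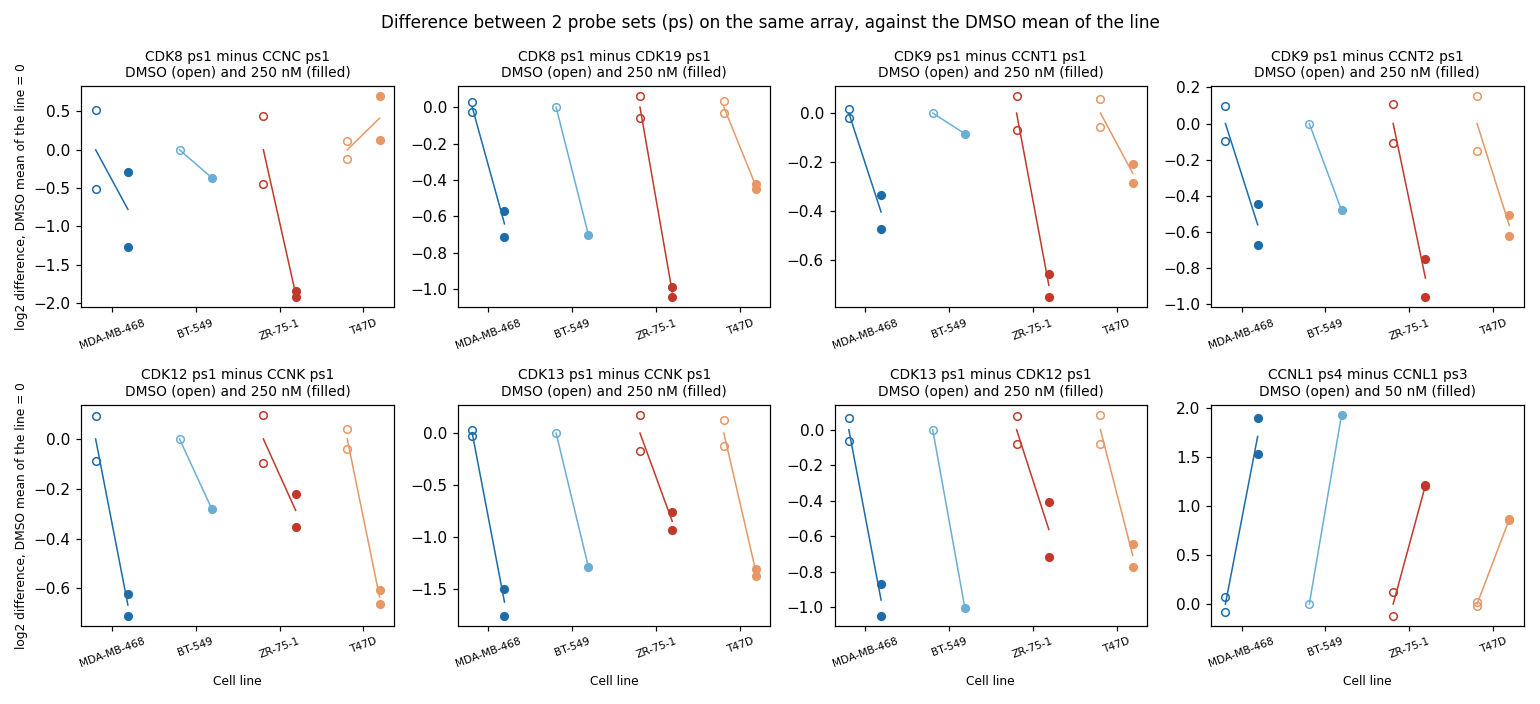
Log2 difference between 2 probe sets of the same array, set to 0 at the DMSO mean of each line (vertical axis), for DMSO arrays (open circles) and treated arrays (filled circles, 250 nM except the last panel at 50 nM), with lines joining the means. CDK13 minus CCNK drops in every line, to -1.63 in MDA-MB-468 and -0.85 in ZR-75-1, while CDK8 minus CCNC rises in T47D and CCNL1 probe set 4 minus probe set 3 rises in all 4 lines.

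Across the 4 lines at 250 nM, with each line 1 point per dose, CDK13 fell by 1.39 on the log2 scale (adjusted p = 0.000201) and CCNL1 by 0.97 (adjusted p = 0.00304). CDK9 fell by 0.74 (adjusted p = 0.00182), CDK8 by 0.69 (adjusted p = 0.00815) and CDK12 by 0.58 (adjusted p = 0.0043). These 5 calls held without any 1 line and under both scalings. CDK19 stood at 0.01 (adjusted p = 0.952), CCNC at -0.03 (adjusted p = 0.922), CCNK at -0.12 (adjusted p = 0.383) and CCNT2 at -0.12 (adjusted p = 0.434).

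The response to 250 nM differed between lines for some members. Between MDA-MB-468 and ZR-75-1, limma called 7 of 27 changes less negative or more positive in MDA-MB-468 and 0 the other way (1 at an unadjusted p under 0.05), against 14.8% and 2.34% of all tested. CDK8 was -0.39 in MDA-MB-468 against -1.30 in ZR-75-1, a difference of 0.91 (adjusted p = 7.36e-05), and CCNK differed by 0.53 (adjusted p = 0.000565). Both probe sets of each of these 2 genes held on leaving out any array and under both scalings. CDK19 differed by 0.53 (adjusted p = 0.0086), which held on leaving out any array and ended under quantile normalization (0.16). Between ZR-75-1 and T47D, 10 changes were more negative in ZR-75-1 and 1 the other way (CCNC, 1.65, adjusted p = 0.0445), against 15% and 2.1% of all tested. CDK8 differed by -0.64 (adjusted p = 0.00132), CDK9 by -0.72 (adjusted p = 0.000859), CCNL1 by -0.87 (adjusted p = 0.00198) on probe set 1 and -1.11 (adjusted p = 0.000237) on probe set 2, and all 4 held on leaving out any array and under both scalings. CCNK differed by -0.52 (adjusted p = 0.000604) there, a call that ended under median-centring (-0.40). The called count was smaller without ZR-75-1 250 nM replicate 2, T47D DMSO replicate 2 or T47D 250 nM replicate 2. With median-centring it was 5, where 8.14% of all tested were called more negative in ZR-75-1 and 3.44% the other way. Between MDA-MB-468 and T47D, 2 changes were more negative in MDA-MB-468 (probe sets 1 and 2 of CCNL1) and 1 less (CDK19), against 6.21% and 4.66%, and without MDA-MB-468 DMSO replicate 1 or either T47D DMSO array the count was 1. The CCNL1 difference on probe set 1 (-0.72, adjusted p = 0.0128) ended without 250 nM replicate 2 of either line (adjusted p up to 0.0662). That of CDK19 (0.47, adjusted p = 0.0286) ended under quantile normalization and without any DMSO array or 250 nM replicate 1 of either line (adjusted p up to 0.121). For CDK13 the differences between lines (-0.25, -0.28 and -0.03) and for CDK12 (0.15, -0.03 and -0.18) did not pass, with standard errors of 0.27 and 0.14.

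With DMSO alone the lines differed in the level of CDK19, CDK8 and CCNC (mean ± SD of 2 arrays, with 1 array in BT-549). CDK19 intensity was 624 in BT-549, 538 ± 13.9 in MDA-MB-468, 176 ± 1.52 in T47D and 151 ± 0.462 in ZR-75-1, and MDA-MB-468 was 3.57-fold above ZR-75-1 (adjusted p = 4.61e-11) and 3.06-fold above T47D (adjusted p = 2.05e-10). T47D and ZR-75-1 differed by 1.17-fold (adjusted p = 0.0454), a call lost under both scalings. CDK8 was 762 ± 39.2 in MDA-MB-468, 683 in BT-549, 532 ± 29.6 in ZR-75-1 and 350.2 ± 8.63 in T47D, and each step between the replicated lines was called, MDA-MB-468 over ZR-75-1 by 1.43-fold (adjusted p = 4.99e-05) and ZR-75-1 over T47D by 1.52-fold (adjusted p = 1.17e-05). CCNC was 1506 ± 661 in MDA-MB-468, 1012 in BT-549, 844 ± 79.2 in T47D and 723 ± 269 in ZR-75-1, with MDA-MB-468 over ZR-75-1 called (adjusted p = 0.0244) unless MDA-MB-468 DMSO replicate 2 or ZR-75-1 DMSO replicate 2 was left out, and the steps to T47D not called on this probe set. The steadier CCNC probe sets 2 and 3 were called higher in MDA-MB-468 than in T47D, by 2.9-fold (adjusted p = 9.87e-09) and 2.9-fold (adjusted p = 4.82e-09), and higher in ZR-75-1 than in T47D, by 1.43-fold (adjusted p = 0.00131) and 1.51-fold (adjusted p = 0.000214), calls that held on leaving out any array and under both scalings. For CDK19 and CDK8 the means of both triple-negative lines lay above those of the ER+ lines, on probe sets 1 and 2, with BT-549 resting on 1 array. For CCNC this held on probe set 1 alone, since the BT-549 array read 499.8 on probe set 2 and 248 on probe set 3, below ZR-75-1 at 512 ± 63.5 and 279 ± 32.3.

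The order was different for the other members. CDK9 was 429 ± 0.0459 in T47D, 375 in BT-549, 362 ± 9.63 in ZR-75-1 and 343 ± 2.25 in MDA-MB-468, where T47D over MDA-MB-468 was called (adjusted p = 0.00452), T47D over ZR-75-1 was called (adjusted p = 0.0258) but not under either scaling, and ZR-75-1 and MDA-MB-468 did not differ beyond their spread. CCNT1 was 104 ± 5.8 in T47D, 99.2 ± 4.08 in ZR-75-1, 86.8 in BT-549 and 68.6 ± 0.783 in MDA-MB-468, with both ER+ lines above MDA-MB-468 (adjusted p = 6.69e-05 and 0.00022) and no called step between them. CCNT2 was 78.5 ± 6.08 in ZR-75-1, 70.9 ± 6.24 in MDA-MB-468, 47 ± 6.93 in T47D and 44.6 in BT-549, with ZR-75-1 and MDA-MB-468 above T47D (adjusted p = 0.00017 and 0.00105) and not called apart. CDK12 was 408 ± 24.2 in T47D, 257 ± 15.0 in MDA-MB-468, 239.8 ± 11.4 in ZR-75-1 and 172 in BT-549, with T47D above MDA-MB-468 and ZR-75-1 (adjusted p = 1.37e-05 and 3.52e-06), which were not called apart. CDK13 was 224 ± 0.953 in MDA-MB-468, 199 ± 28.0 in T47D, 159.8 in BT-549 and 137 ± 17.0 in ZR-75-1, with ZR-75-1 below MDA-MB-468 (adjusted p = 0.00358) and below T47D (adjusted p = 0.022), the second call ending without ZR-75-1 DMSO replicate 2 or T47D DMSO replicate 2 and under quantile normalization. CCNK was 888 ± 16.5 in T47D, 797 ± 37.5 in ZR-75-1, 726 in BT-549 and 607 ± 18.4 in MDA-MB-468, with MDA-MB-468 below ZR-75-1 (adjusted p = 4.08e-05) and T47D (adjusted p = 9.54e-07), and ZR-75-1 below T47D (adjusted p = 0.0394) as deposited and under neither scaling. CCNL1 was 367 ± 26.2 in MDA-MB-468, 361 ± 3.16 in T47D, 277 in BT-549 and 270.2 ± 27.2 in ZR-75-1, with ZR-75-1 below MDA-MB-468 (adjusted p = 0.00417) and T47D (adjusted p = 0.0062), calls that both ended without ZR-75-1 DMSO replicate 1. Over the 27 probe sets 16 were called between MDA-MB-468 and ZR-75-1, 19 between MDA-MB-468 and T47D (10 lower and 9 higher in MDA-MB-468, against 34.4% and 31.6%) and 19 between ZR-75-1 and T47D, against 64%, 66.1% and 60.6% of all tested, so these shares were near the background. The last count was 12 without ZR-75-1 DMSO replicate 1 and 11 without T47D DMSO replicate 2. Its split was 12 lower and 7 higher in ZR-75-1 as deposited (35.5% and 25.1% of all tested). It was 7 and 7 with median-centring (30.3% and 28.9%) and 5 and 7 with quantile normalization (30.5% and 30.6%). The split between MDA-MB-468 and ZR-75-1 was 3 lower and 13 higher in MDA-MB-468 as deposited (28.2% and 35.8% of all tested). It was 6 and 12 with median-centring (33% and 30.2%) and 7 and 12 with quantile normalization (33.2% and 31.1%).

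In BT-549, with 1 array per dose, 2 of the 27 member probe sets were at least 2-fold lower at 250 nM, CDK13 probe set 1 (-1.37) and CCNL1 probe set 3 (-1.20), and 1 was at least 2-fold higher, CCNL1 probe set 4 (1.08). Over all tested probe sets 7.65% were 2-fold lower and 0.206% 2-fold higher. At 50 nM none was 2-fold lower and CCNL1 probe set 4 was 2-fold higher (1.00), against 2.71% and 0.327%. CDK13 probe set 2 came close to that size at 250 nM (-0.96), and CDK9 (-0.60), CCNT1 (-0.51) and CDK8 (-0.40) were lower by less. CDK19 (0.30) was the kinase with a higher value, as in MDA-MB-468, and CCNC (-0.03) and CCNK (-0.08) changed least.

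Other genes of the same pathways were read from lists by 1 probe set per gene, and counts are of the 4-line fit at 250 nM, where 30.1% of all genes were lower and 9.58% higher. CDK7, the drug's target and the kinase of TFIIH, fell by 1.00 on the log2 scale (adjusted p = 0.00014), with -0.93 in MDA-MB-468, -1.25 in ZR-75-1 and -0.73 in T47D, while its partners CCNH and MNAT1 were not called across lines. In ZR-75-1 all 3 of these genes were called lower as deposited, and 1 under either scaling. Among the Mediator kinase module partners 2 of 3 tested genes were lower, MED13 (-1.49, adjusted p = 0.00176) and MED13L (-0.53, adjusted p = 0.00451), which tether the module to Mediator, and MED12, which activates CDK8, stood at 0.09 (list median -0.53). With quantile normalization MED12 was called higher across lines (0.30, adjusted p = 0.0351). In ZR-75-1 at 250 nM, 1 of the 3 was called higher as deposited. Of 13 tested P-TEFb regulators and elongation partners 8 were lower and 0 higher (median -0.45, all tested probe sets -0.07). MEPCE (-1.56, adjusted p = 0.00035) and HEXIM1 (-1.32, adjusted p = 0.000924) hold P-TEFb in its inactive 7SK complex, and EAF1 (-0.60) is a partner of the ELL elongation factors. At 50 nM HEXIM1 was lower in MDA-MB-468 (-0.37, adjusted p = 0.0235) and higher in ZR-75-1 (0.61, adjusted p = 0.00213) and T47D (0.36, adjusted p = 0.0435). The difference of that response between lines was not tested.

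Of 11 tested pausing and elongation complex genes 5 were lower and 0 higher (median -0.23), among them NELFA (-0.75, adjusted p = 0.000375), a subunit of the pausing factor NELF, and LEO1 (-1.02) and CDC73 (-0.56) of the PAF1 complex. Of 7 phosphatases of the polymerase's carboxy-terminal domain and their partners 5 were lower (median -0.61), CTDP1 (-1.35, adjusted p = 0.000159), PPP1R10 (-1.28, adjusted p = 0.000577) and RPAP2 (-0.82, adjusted p = 0.00327) among them. PPP1R10, a targeting subunit of protein phosphatase 1, was already lower at 50 nM (-1.03 across lines, adjusted p = 0.0357), and in T47D (-1.39), MDA-MB-468 (-1.43) and ZR-75-1 (-0.88). Of 11 tested DNA repair genes known to depend on CDK12, 3 were lower (median -0.33), BARD1 (-1.24, adjusted p = 0.000489), TOPBP1 (-0.69, adjusted p = 0.000929) and ATR (-0.33, adjusted p = 0.014). Within lines this list had 6 of 11 lower at 50 nM in MDA-MB-468, 5 in ZR-75-1 and 5 in T47D, against 14.1%, 5.45% and 7.25% of all genes, and 3, 8 and 7 at 250 nM, against 30%, 42.6% and 33.2%, with 0 higher at either dose as deposited. Median-centring left 3, 3 and 2 lower at 50 nM (6.64%, 3.3% and 4.34% of all tested probe sets), and quantile normalization 5, 5 and 4 (8.27%, 4.5% and 4.7%), with 0 higher. At 250 nM the list had 2 lower and 2 higher in MDA-MB-468 under both scalings, 6 and 0 or, with quantile normalization, 5 and 2 in ZR-75-1, and 6 and 0 in T47D under both. Across 4 lines at 250 nM it had 2 and 0 with median-centring (21.3% and 27.9% of all tested probe sets) and 2 and 2 with quantile normalization (19.8% and 32.1%). Its median log2 change at 50 nM was -0.29, -0.35 and -0.33 in these lines, beside -0.05, 0.0031 and -0.04 for all tested probe sets, and across 4 lines 0 of 11 were called at 50 nM (2 lower with quantile normalization), where 0.649% of all genes were lower. Of 5 other transcription-linked kinases and cyclins only CCNQ, the cyclin of CDK10, was lower (-0.44, adjusted p = 0.0142), and CDK11B, the partner of CCNL1, stood at 0.09. Scaling left the P-TEFb list at 7 lower and 0 higher and the phosphatase list at 4 and 0, both under median-centring and quantile normalization. It gave the pausing list 4 lower and 2 higher under both, and the other kinases and cyclins 0 and 2 or 1 and 3, CDK11B being called higher under both, and it ended the calls of ATR under both and of CCNQ under median-centring.

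The genes most like each member were named by Pearson's r over the 12 line-by-dose means after removing each line's mean, as a description of 12 points that share 21 arrays. CDK9 was most like ZNF266 (r = 0.997) and TMEM51 (r = 0.996), CCNL1 like HNRNPF (r = 0.99) and MIDEAS (r = 0.99), and CDK8 like RBBP5 (r = 0.99) and USP38 (r = 0.99). CDK12 was most like ZHX3 (r = 0.99) and SNX27 (r = 0.98), and CDK13 like SNRNP35 (r = 0.99) and ZNF136 (r = 0.99). CCNT1 was most like MED4 (r = 0.98) and MSANTD2 (r = 0.98), CCNT2 like KIF22 (r = 0.97) and BRD2 (r = 0.96), and CCNK like NAXD (r = 0.98) and STX6 (r = 0.96). CDK19 was most like CD46 (r = 0.95) and DNAJC13 (r = 0.95), and CCNC like NXT2 (r = 0.97) and IDS (r = 0.95). Among members, CDK9 ran with CCNL1 (r = 0.97), CDK8 (0.95), CDK12 (0.94) and CDK13 (0.92). How often other pairs of genes reach such values was not determined, so these are not shown to be particular to the members. CDK19 stayed between -0.34 and 0.34 with every other member, and CCNC between -0.35 and 0.06.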

How the data were processed

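The deposited table holds linear intensity values of 49395 probe sets on 21 PrimeView arrays, made by the authors with MAS5 per the submitters' processing notes; the array-to-array scaling and background steps are not given in the sources used here. For each array, 100 ng of total RNA was primed with oligo(dT) and labelled, per the labels' protocols. Probe sets were named through the platform annotation (44994 with 1 symbol, 1832 with several, 2569 with none), and 44967 symbols were updated through Entrez identifiers.

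The deposited intensity values were floored at 1 and converted to log2. limma 3.58.1 (R 4.3.3; lmFit, eBayes with an intensity trend) was fitted to 29084 probe sets on the 18 arrays of the 9 groups with 2 arrays, and a second fit with a line term used the 12 line-by-dose means. p-values were adjusted by Benjamini-Hochberg within each contrast and called at 0.05. In simulated data for 250 nM in MDA-MB-468 (29084 probe sets), log2 changes of 0.3, 0.5 and 1 were called for 18%, 57% and 87% of 200 probe sets each, with 5.5% false among calls. In the simulation only these probe sets changed, whereas 26.7% were called lower and 8.17% higher in the real contrast. The simulated shares are therefore not the power of that contrast. The small number of arrays limits the precision.

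The genes and lists were chosen with earlier results of these data known. All tested probe sets of the 10 genes were described, the brightest by mean as representative, and for each the 2 genes with the highest correlation were named. From each list the 3 genes with the smallest p across 4 lines at 250 nM were named. Alternatives were arrays centred on their median, quantile normalization, a floor of 16, no filter, the replicate number as a block, 1 probe set per gene, the median of a gene's probe sets, and leaving out each array or line. RefSeq promoters (GRCh38.p14) were matched for all 10 genes. ERCC spike-ins are not analysed here.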

Additional observations from a re-analysis of the deposited data

Results flagged for a closer look

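The log2 change at 250 nM THZ1 differed between replicated lines for 21 pairs of a member probe set and a line contrast, by limma's test of the difference itself, adjusted over all 29084 probe sets. The change in MDA-MB-468 minus that in ZR-75-1 was 0.91 (SE 0.12, adjusted p = 7.36e-05) for CDK8 and 0.57 (SE 0.14, adjusted p = 0.00793) for its probe set 2, with less fall in MDA-MB-468. For CCNK it was 0.53 (SE 0.09, adjusted p = 0.000565) and, on probe set 2, 0.52 (SE 0.10, adjusted p = 0.002), where ZR-75-1 alone of the replicated lines had a called fall. For CDK19, with opposite signs in the 2 lines as deposited, it was 0.53 (SE 0.13, adjusted p = 0.0086). The CDK19 calls here and against T47D ended under quantile normalization, which turned its ZR-75-1 change to 0.22. The weaker ones of this contrast were CDK9 probe set 2 at 0.61 (SE 0.19, adjusted p = 0.0368) and CCNL1 probe set 2 at 0.57 (SE 0.17, adjusted p = 0.0269), each lost under both scalings. In MDA-MB-468 minus T47D, CCNL1 gave -0.72 (SE 0.17, adjusted p = 0.0128) and, on probe set 2, -0.54 (SE 0.17, adjusted p = 0.04997), and CDK19 gave 0.47 (SE 0.13, adjusted p = 0.0286). CCNL1 probe set 2 lost this call under both scalings and without any of 13 arrays, among them all 6 of T47D and 5 of MDA-MB-468 (not 250 nM replicate 1).

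ZR-75-1 minus T47D held the other 11 differences. CCNL1 fell more in ZR-75-1, by -0.87 (SE 0.17, adjusted p = 0.00198) on probe set 1 and -1.11 (SE 0.17, adjusted p = 0.000237) on probe set 2. CDK9 gave -0.72 (SE 0.13, adjusted p = 0.000859) and, on probe set 2, -0.65 (SE 0.19, adjusted p = 0.0286). CDK8 gave -0.64 (SE 0.12, adjusted p = 0.00132) and, on probe set 2, -0.52 (SE 0.14, adjusted p = 0.0138), the second ending without ZR-75-1 DMSO replicate 1 or T47D DMSO replicate 1. CCNK gave -0.52 (SE 0.09, adjusted p = 0.000604) and, on probe set 2, -0.46 (SE 0.10, adjusted p = 0.00485). Under median-centring the calls of probe set 2 of CDK9 and of CDK8 ended, as did those of probe sets 1 and 2 of CCNK. CCNC, the member with the widest spread, gave 1.65 (SE 0.53, adjusted p = 0.0445), a call that held under both scalings and ended without any of 9 arrays, among them each DMSO and 250 nM array of T47D. CDK12 probe set 5 gave -0.59 (SE 0.19, adjusted p = 0.0436) and CCNL1 probe set 4 -0.60 (SE 0.19, adjusted p = 0.0415), both lost under each scaling and with the replicate number as a block. No group held 4 to 10 arrays, so single arrays were not screened as outliers.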

How the results depend on the processing

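Of the values reported for single probe sets, 394 kept direction and side of the threshold with arrays centred on their median (42 lost a call, 23 gained one), 376 with quantile normalization (47 lost, 29 gained, 7 reversed), 445 without the filter (13 lost, 1 gained) and 456 with a floor of 16 (2 lost, 1 gained). The replicate numbers did not pair the arrays (correlation of same-numbered deviations -0.19 to 0.29, below 0.1 in 6 of 9 pairs of groups). With them as a replicate block 395 values stayed on their side, 5 calls were lost and 5 gained, CDK13 in T47D at 50 nM among the gained, and the count of members higher at 250 nM in MDA-MB-468 was 2 in place of 1.

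With median-centring, lower members at 250 nM numbered 8 in MDA-MB-468 and 13 in ZR-75-1 (18.3% and 27.1% of all tested). Higher ones numbered 6 and 3 (25.5% and 27.5%), with 10 higher in MDA-MB-468 at 50 nM (11.5%). The 4-line fit at 50 nM then had 1 higher (0.784% of all tested). The ZR-75-1 and T47D responses differed for 5 (8.14% of all tested more negative in ZR-75-1 and 3.44% the other way). With quantile normalization, lower members at 250 nM numbered 9 and 13 (18.8% and 26.2%). Higher ones numbered 5, 4 and, in T47D, 4 (24.9%, 33.8% and 25.5%). At 50 nM T47D had 1 lower and 2 higher (4.7% and 3.59%), ZR-75-1 4 higher (3.06%) and the 4 lines 1 higher (0.705%). Responses then differed for 1 (MDA-MB-468 and T47D), 4 (MDA-MB-468 and ZR-75-1) and 7 (ZR-75-1 and T47D). Of all tested, 6.68%, 5.79% and 10.6% were more negative in the first line of each pair and 5.43%, 9.91% and 5.96% the other way. DMSO levels of ZR-75-1 and T47D differed for 12 (30.5% of all tested lower and 30.6% higher in ZR-75-1). Without the filter, 0 were higher in MDA-MB-468 at 250 nM and 1 called across 4 lines at 50 nM. Quantile normalization reversed CCNC at 250 nM to 0.27 (T47D) and 0.28 (ZR-75-1) on probe set 2 and 0.25 (T47D) on probe set 3, CDK12 probe set 2 to 0.027 across lines and 0.002 in ZR-75-1, and CDK19 in ZR-75-1 to 0.22 against DMSO and 0.044 against 50 nM. The cause was not tested.

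Leaving out 1 array at a time, lower members at 250 nM numbered 9 to 16 in MDA-MB-468, 16 to 20 in ZR-75-1 and 10 to 12 in T47D, and higher ones 0 to 1, 0 and 1. At 50 nM lower members numbered 0 to 1, 0 and 0 to 4 and higher ones 1 to 6, 1 to 3 and 0 to 1. Calls between the doses numbered 15 to 20, 21 to 23 and 9 to 15. Responses differed for 5 to 8 (MDA-MB-468 and ZR-75-1), 1 to 4 (MDA-MB-468 and T47D) and 7 to 11 (ZR-75-1 and T47D), and DMSO levels for 12 to 16, 15 to 19 and 11 to 19. Leaving out 1 line, the 4-line calls numbered 9 to 15 at 250 nM (9 without MDA-MB-468, 10 without ZR-75-1) and 0 to 1 at 50 nM (1 without ZR-75-1). Where an array left out leaves 1 in its group, that array is assumed to vary like the other groups.

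Probe sets in place of the representative moved 2 within-array differences: with the mean of each gene's tested probe sets CDK8 minus CCNC was -0.72 (adjusted p = 0.0162) and CDK9 minus CCNT2 -0.054 (adjusted p = 0.676). Signal near background limits CCNT2 probe set 3, whose folds are bounds.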
